A study of Homo sapiens with 24 samples.

Results

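MUTZ-5 and MHH-CALL4, both established human lines, grow from acute lymphoblastic leukemia of B cell precursors. Here the 3 MUTZ-5 arrays were set against the 3 MHH-CALL4 arrays from cells that had spent 8 hours in 500 nM JQ1, to see which differences between the lines remained while BET proteins were inhibited. These 6 arrays were chosen by line, treatment and summary level in the labels, and by no measured value. They are 6 of 12 arrays in all. Each array was deposited at the core and at the extended probe set level, which makes 24 columns, and the core level was used. The other 6 arrays, 3 for each line, came from cells kept for the same 8 hours in DMSO, the solvent of JQ1, and gave the line difference without the inhibitor. All groups grew in the same serum-supplemented medium. The labels name no genotype, and each line is the leukemia of 1 source, so a line difference describes these lines and no wider class of leukemia.

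BET proteins, among them BRD2 and BRD3, bind acetylated histone tails through their bromodomains and bring the elongation kinase P-TEFb to active genes. JQ1 occupies the bromodomain pocket and displaces these proteins from chromatin, which lowers transcription most at genes with strong enhancers, among them MYC. Both lines are known for rearranged CRLF2, the receptor of the cytokine TSLP, and for activated JAK2, which signals through STAT5. CRLF2 was not analysed here. Leukemia lines keep much of the program of the cell they came from, so lines can differ in stage markers, signalling proteins and genes that one of them has lost or silenced.

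Values are RMA expression values on a log2 scale, where 1 unit is a doubling, for 14232 genes with 1 probe set summary each. The array median lay between 8.46 and 8.57 in all 12 arrays. A line difference is the MUTZ-5 mean minus the MHH-CALL4 mean of 3 arrays, so a positive value means higher in MUTZ-5. A gene was called at an adjusted p under 0.05 (limma, Benjamini-Hochberg over all genes). The change of a line difference is the difference under JQ1 minus that under DMSO, tested as an interaction. Because the files hold no detection calls, no gene can be called absent, and sizes near the low end of the scale (5% of gene means lie under 5.07) are not exact. The spread around group means was widest in MUTZ-5 DMSO replicate 3 (SD 0.170 over all genes) and MHH-CALL4 JQ1 replicate 3 (0.153), and lay between 0.087 and 0.132 in the other arrays. Whether a group's 3 samples were cultured separately is not stated in the labels, so p-values reflect only how far these samples spread, which may be technical.

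The labelled cell type was checked against marker lists. The 11 measured precursor B cell markers, among them PAX5, EBF1 and CD79A, averaged between 11.26 and 11.29 in the MHH-CALL4 JQ1 arrays and between 11.41 and 11.45 in the MUTZ-5 JQ1 arrays. T and NK cell markers (19 measured) averaged between 6.84 and 7.08 in the former and between 6.94 and 7.02 in the latter. For erythroid and megakaryocyte markers (12 measured) the averages were 7.56 to 7.81 and 7.61 to 7.75, for stromal and endothelial markers (15 measured) 7.41 to 7.55 and 7.31 to 7.40, and for myeloid markers (17 measured) 7.52 to 7.65 and 7.63 to 7.68. The average of the precursor B cell markers lay above 8.52, the median of all gene means, in every array of both lines, and the averages of the T and NK, erythroid, stromal and myeloid lists lay below it. Plasma cell markers (13 measured), some of which precursor B cells also make, averaged 9.20 to 9.32 in the MHH-CALL4 JQ1 arrays and 8.96 to 9.06 in those of MUTZ-5, above 8.52 as well. The part of this in the results was not tested.

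Under JQ1 the lines differed in 2836 of 14232 genes (19.9%). Of these, 1662 were higher in MUTZ-5 and 1174 higher in MHH-CALL4. At least 2-fold differences were found in 493 genes (3.46%), 278 higher in MUTZ-5 and 215 higher in MHH-CALL4, and 52 genes reached 8-fold, 26 in each direction. The 3 MUTZ-5 values and the 3 MHH-CALL4 values did not overlap in 4710 genes (33.1%). They did not overlap in 2813 of the 2836 called genes, so separate values in a called gene add little to its call. Under DMSO 3330 genes were called (23.4%), 1695 higher in MUTZ-5 and 1635 higher in MHH-CALL4, and 568 differed at least 2-fold (3.99%). The median line difference over all genes was 0.024 under JQ1 and 0.028 under DMSO, and its median size 0.107 and 0.144. Across the 14232 genes, which are not independent replicates, the 2 sets of differences correlated with Pearson's r of 0.888. They share no array. The scatter plot of both differences shows this band along the diagonal, with 218 genes (1.53%) for which the change of the line difference was called.

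**Figure D1:**
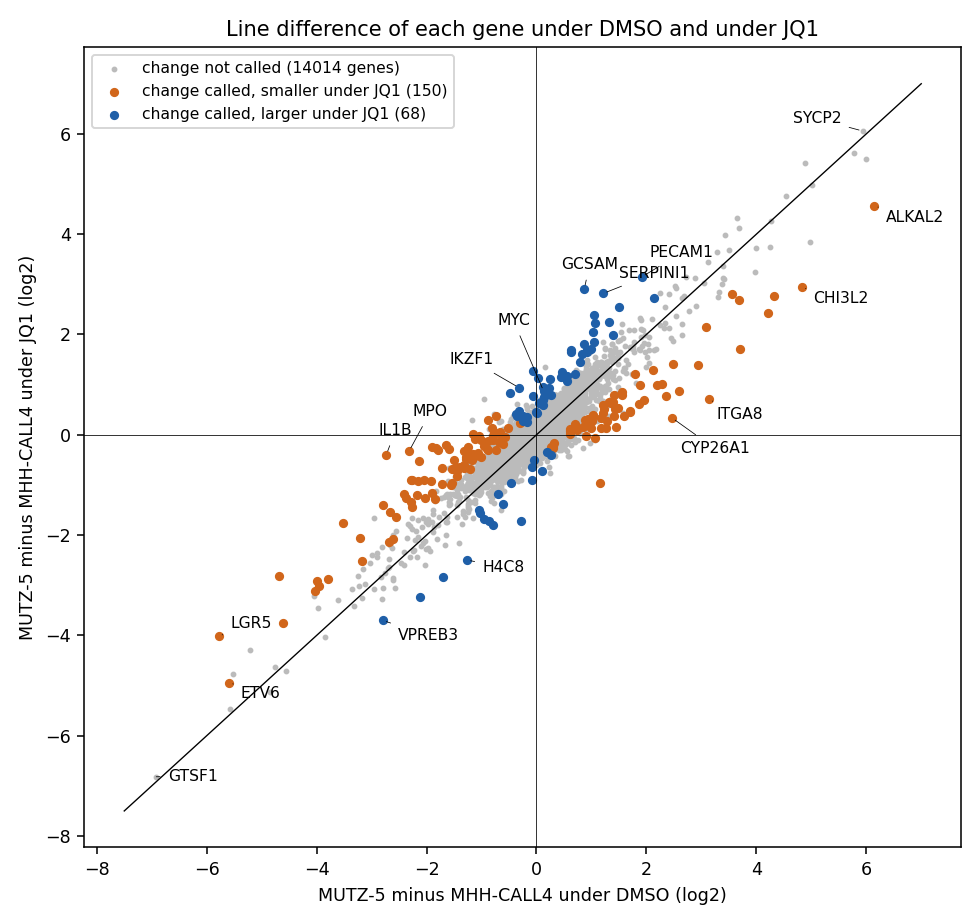
Each point is 1 of 14232 genes, with its MUTZ-5 minus MHH-CALL4 difference under DMSO on the x axis and under JQ1 on the y axis, both in log2 units and each from 3 arrays per line. The line marks equal differences. The change was called for 218 genes, of which 150 (orange) were smaller in size under JQ1 and 68 (blue) larger.

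The genes with the largest called differences under JQ1, 10 in each direction among those whose groups did not overlap and whose higher mean reached the median level of 8.52, belong to many cell functions. On the MUTZ-5 side stood SYCP2, which encodes a protein of the meiotic chromosome axis. Its values under JQ1 were 10.77, 10.66 and 10.43 for MUTZ-5 against 4.51, 4.61 and 4.56 for MHH-CALL4. Every MUTZ-5 value lay above every MHH-CALL4 value, and the difference of 6.06 log2 (66.6-fold, SE 0.103, adjusted p = 1.1e-13) stood beside 5.94 under DMSO. FRY, a microtubule-binding regulator of cell shape and division, gave 11.77, 11.79 and 11.69 for MUTZ-5 against 6.08, 6.0 and 6.31 for MHH-CALL4 (difference 5.62, SE 0.092, adjusted p = 8.5e-14). FYB1, an adaptor of immune receptor signalling and integrin activation, gave 11.46, 11.34 and 10.99 for MUTZ-5 against 5.69, 5.87 and 5.72 for MHH-CALL4 (difference 5.50). These 3 genes were low in all MHH-CALL4 arrays and high in all MUTZ-5 arrays, with either treatment.

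The sodium channel gene SCN3A differed by 5.42 and the prostaglandin D2 receptor gene PTGDR by 4.98. APOOL, which encodes a component of the mitochondrial cristae junction complex, had values of 10.57, 10.60 and 10.50 for MUTZ-5 against 5.53, 5.86 and 5.97 for MHH-CALL4 (difference 4.77, SE 0.108, adjusted p = 2.0e-12). UNC13B, a factor for vesicle release, differed by 4.33, and MINPP1, an inositol polyphosphate phosphatase, by 4.13. Over the alternative settings described below, the lowest differences of FYB1, UNC13B and MINPP1 were 3.70, 3.10 and 3.28. The remaining members of this set moved more than 1.5 times with the probes summarised. ALKAL2, a ligand of the receptor kinases ALK and LTK, differed by 4.56 at the core level and by 1.15 at the extended level, and the antisense RNA gene ZNF667-AS1 by 4.27 and 2.40. All 10 genes were also called higher in MUTZ-5 under DMSO, with differences from 3.65 to 6.14.

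On the MHH-CALL4 side GTSF1, a factor of the piRNA pathway that silences transposons in germ cells, led with 12.27, 12.24 and 12.21 for MHH-CALL4 against 5.48, 5.42 and 5.36 for MUTZ-5. The difference of -6.82 log2 (113-fold, SE 0.120, adjusted p = 1.4e-13) shrank to -4.09 at the extended level. TGFBR2, the type II receptor of TGF-beta, gave 12, 12.11 and 11.98 for MHH-CALL4 against 6.62, 6.45 and 6.61 for MUTZ-5 (difference -5.47, SE 0.085, adjusted p = 6.1e-14). ETV6, an ETS family repressor that is often fused or deleted in precursor B leukemia, gave 11.81, 11.84 and 11.80 for MHH-CALL4 against 6.87, 6.91 and 6.86 for MUTZ-5 (difference -4.94, SE 0.069, adjusted p = 3.3e-14). In each of these genes the 3 MHH-CALL4 arrays lay close together and far above MUTZ-5. LYN, the Src family kinase that starts B cell receptor signalling, gave 11.38, 11.29 and 11.04 for MHH-CALL4 against 6.63, 6.55 and 6.65 for MUTZ-5 (difference -4.63, SE 0.127, adjusted p = 1.2e-11).

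KDM6A, which removes methyl groups from lysine 27 of histone H3, gave 9.80, 9.73 and 9.54 for MHH-CALL4 against 5.04, 4.91 and 5.01 for MUTZ-5, and KLHL9, a substrate adaptor of a cullin 3 ubiquitin ligase, 10.99, 10.98 and 11 for MHH-CALL4 against 5.87, 5.98 and 5.76 for MUTZ-5. The differences were -4.70 (SE 0.102, adjusted p = 1.3e-12) and -5.12 (SE 0.154, adjusted p = 3.2e-11). LRP6 and LGR5, a co-receptor of Wnt and a receptor of the Wnt enhancers called R-spondins, differed by -4.04 and -4.02. ACAA2, a thiolase of mitochondrial fatty acid oxidation, differed by -4.78 and the solute carrier SLC35F2 by -4.30, with -2.60 and -1.81 at the extended level. In the plot by array the MUTZ-5 and MHH-CALL4 arrays formed separate groups under JQ1 and under DMSO for all 20 genes. In 17 of the 20 genes the change between treatments was not called, and the exceptions were ALKAL2, ETV6 and LGR5. The change of 0.65 in ETV6 was 0.47 and not called at the extended level, and that of -1.58 in ALKAL2 was not called when MHH-CALL4 DMSO replicate 2 was left out (adjusted p = 0.0506).

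**Figure D2:**
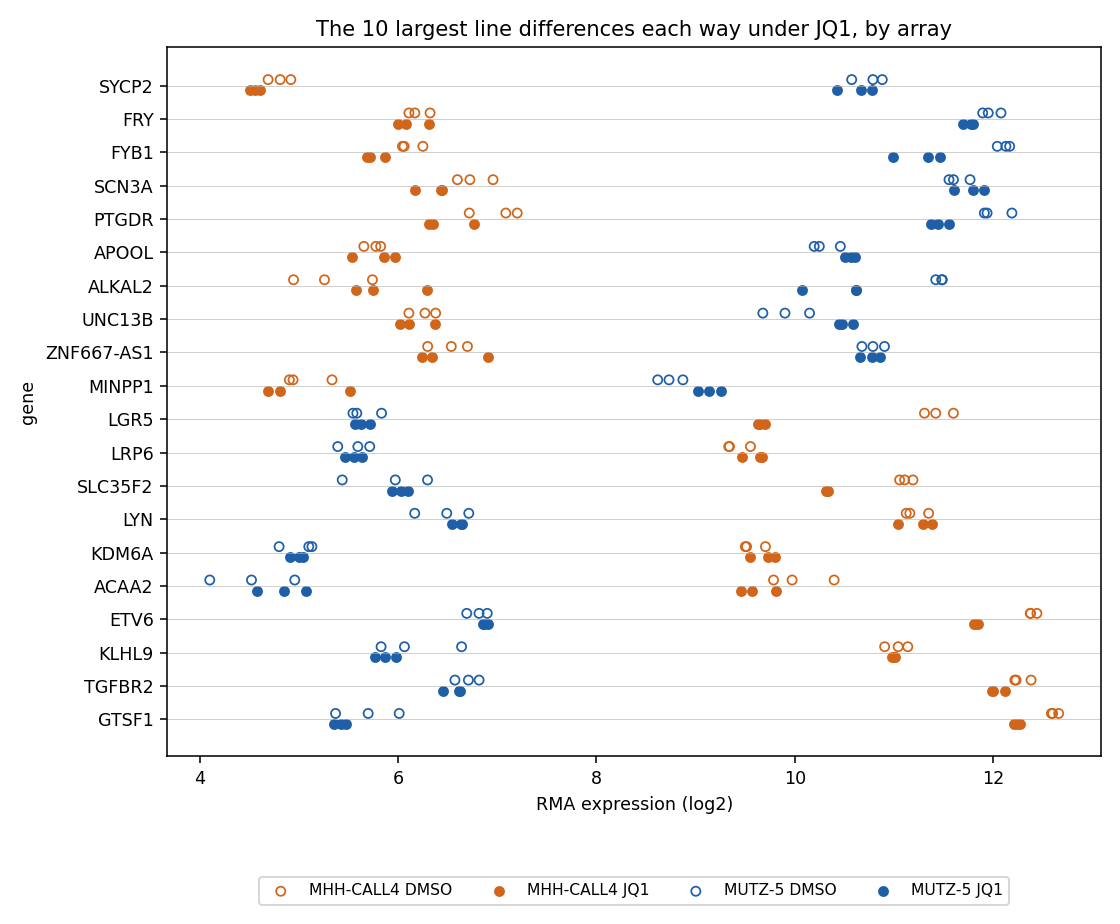
RMA expression (log2) of the 10 genes with the largest called difference in each direction under JQ1, with 1 point per array. Filled points are JQ1 arrays and open points DMSO arrays, MUTZ-5 in blue and MHH-CALL4 in orange, 3 arrays per group. For each gene the colors separate, and filled and open points of a color lie mostly together, with LGR5 in MHH-CALL4 as a gene where they part.

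Most large line differences remained under JQ1. Of the 568 genes that differed at least 2-fold under DMSO, 544 (95.8%) were called in the same direction under JQ1, 386 (68.0%) were again at least 2-fold apart, 23 were not called and 1 was called in the opposite direction. All 164 genes at least 4-fold apart under DMSO were called in the same direction under JQ1. Seen from the other side, 487 (98.8%) of the 493 genes at least 2-fold apart under JQ1 were called in the same direction under DMSO. The median size of the 568 differences was 1.45 under DMSO and 1.27 under JQ1. It was 1.51 and 1.19 for the 289 genes higher in MHH-CALL4, and 1.39 and 1.34 for the 279 higher in MUTZ-5. The reverse was computed too, since genes chosen for a large difference in one set of arrays tend to show a smaller one in another. The 493 genes chosen under JQ1 had a median size of 1.45 there and 1.43 under DMSO. It was 1.56 and 1.67 for the 215 higher in MHH-CALL4, and 1.43 and 1.28 for the 278 higher in MUTZ-5. In each pair the value from the treatment not used for the choice was signed by the chosen direction.

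Over all sizes 2102 genes were called in the same direction under both treatments, which is 74.1% of the JQ1 calls and 63.1% of the DMSO calls, and 12 in opposite directions. A further 722 were called under JQ1 alone and 1216 under DMSO alone, but the change itself was called in only 24 and 43 of these. For the rest a call under one treatment and none under the other does not show that the difference changed. Of the 218 genes with a called change, 150 had a smaller difference under JQ1 and 68 a larger one. Without MUTZ-5 DMSO replicate 3, the array with the widest spread, the change was called in 360 genes.

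In the 150 genes whose difference narrowed, the line with the higher level under DMSO was mostly the one that fell. Of the 86 that were higher in MHH-CALL4, 79 fell under JQ1 in MHH-CALL4 (17.5% of all genes fell there), with a median change of -0.92, while 16 fell and 12 rose in MUTZ-5 (13.0% and 9.06% of all genes), with a median of -0.03. Of the 64 that were higher in MUTZ-5, 56 fell in MUTZ-5 (13.0% of all genes; median -0.89), while 9 fell and 15 rose in MHH-CALL4 (17.5% and 11% of all genes), where the median was 0.05. The change within a line is part of the interaction that chose these genes, so these counts describe them and test nothing further.

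Narrowed differences with the higher level in MHH-CALL4 included cytokine, granule enzyme and channel genes. IL1B, the inflammatory cytokine interleukin-1 beta, had DMSO values of 10.03, 9.91 and 9.95 for MHH-CALL4 against 7.22, 7.16 and 7.32 for MUTZ-5. Under JQ1 they were 7.36, 7.26 and 7.24 for MHH-CALL4 against 6.72, 6.74 and 7.22 for MUTZ-5. The MHH-CALL4 values came down to just above those of MUTZ-5, and the difference went from -2.73 to -0.40 (change 2.34, SE 0.163, adjusted p = 6.2e-06; 1.63 at the extended level). MPO, the myeloperoxidase of neutrophil granules, had 10.46, 10.56 and 10.51 for MHH-CALL4 against 8.21, 8.19 and 8.17 for MUTZ-5 under DMSO and 7.81, 8.07 and 8.25 for MHH-CALL4 against 7.76, 7.62 and 7.76 for MUTZ-5 under JQ1. Its difference went from -2.32 to -0.33 (change 1.99, SE 0.137, adjusted p = 6.2e-06). The small differences left under JQ1 rested on single arrays. For IL1B (adjusted p = 0.0259) the call did not hold without MHH-CALL4 JQ1 replicate 1 or 2 or MUTZ-5 JQ1 replicate 1 or 2 (differences -0.36, -0.41, -0.31 and -0.32, adjusted p up to 0.127). For MPO (adjusted p = 0.0283) it was lost without MHH-CALL4 JQ1 replicate 2 or 3 or MUTZ-5 JQ1 replicate 1 or 2 (differences -0.32, -0.22, -0.35 and -0.28, adjusted p up to 0.124). With the replicate number as a block in the 6 JQ1 arrays the adjusted p was 0.109 for IL1B and 0.0905 for MPO, and at the extended level it was 0.152 and 0.121.

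The potassium channel gene KCNQ5 went from 11.10, 10.94 and 10.99 for MHH-CALL4 against 6.40, 6.18 and 6.38 for MUTZ-5 under DMSO to 9.48, 9.44 and 9.13 for MHH-CALL4 against 6.31, 6.72 and 6.53 for MUTZ-5 under JQ1. It stayed higher in every MHH-CALL4 array, but the difference shrank from -4.69 to -2.82 (change 1.87, SE 0.164, adjusted p = 4.1e-05). LGR5 shrank from -5.78 to -4.02 and SAMSN1, an adaptor that dampens B cell activation, from -3.52 to -1.75 (changes 1.77 and 1.76, adjusted p = 1.3e-05 and 2.5e-05). PSTPIP2, a membrane-bending protein of myeloid and B cells, went from -1.90 to -0.25 (change 1.65, adjusted p = 5.8e-05). Its difference under JQ1 was not called (adjusted p = 0.143), though it passed in the 6 JQ1 arrays with the replicate block (0.0465). In all of these MHH-CALL4 fell, with KCNQ5 at -1.66 and PSTPIP2 at -2.04, while the MUTZ-5 values of these genes changed by 0.20 and -0.40.

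Other myeloid markers were looked at beside MPO. Of 17 measured, 4 were higher in MHH-CALL4 under DMSO and 1 higher in MUTZ-5 (11.5% and 11.9% of all genes), against 2 and 1 under JQ1 (8.25% and 11.7%). CTSG, the granule protease cathepsin G, and LYZ, lysozyme, were picked out after their values were seen. CTSG differed by -1.60 under DMSO and by -0.28 under JQ1, and LYZ by -1.05 and -0.03, with called changes of 1.32 and 1.03 (adjusted p = 3.2e-04 and 0.00317). CEBPA, a transcription factor of granulocyte precursors, stayed higher in MHH-CALL4 (-0.95 and -0.93), and VCAN, a matrix proteoglycan, higher in MUTZ-5 (3.97 and 3.24). ELANE, PRTN3 and AZU1, other granule genes of neutrophil precursors, were not called under either treatment. The average over the list was 7.82 to 7.89 in the MHH-CALL4 DMSO arrays and 7.69 to 7.84 in those of MUTZ-5, against 7.52 to 7.65 and 7.63 to 7.68 under JQ1. The part of other cells in this result was not tested.

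Narrowed differences with the higher level in MUTZ-5 were led by ITGA8, an integrin subunit. Its values were 5.87, 5.99 and 5.97 for MHH-CALL4 against 9.04, 8.93 and 9.27 for MUTZ-5 under DMSO and 5.56, 5.75 and 5.90 for MHH-CALL4 against 6.46, 6.49 and 6.39 for MUTZ-5 under JQ1. MUTZ-5 fell by 2.63 log2 towards the level of MHH-CALL4, and the difference went from 3.13 to 0.71 (change -2.43, SE 0.143, adjusted p = 3.8e-06). CYP26A1, which breaks down retinoic acid, went from 2.47 to 0.34 (change -2.13, adjusted p = 6.2e-06). What was left of it under JQ1 (adjusted p = 0.0324) was not called with the replicate block (0.0601 in the 12 arrays and 0.0948 in the 6 JQ1 arrays), nor without MHH-CALL4 JQ1 replicate 1 or 2 or MUTZ-5 JQ1 replicate 1 or 2 (differences 0.30, 0.31, 0.26 and 0.34, adjusted p up to 0.156), nor with cyclic loess (0.0876) or extended summaries (0.126). GJB6, a gap junction connexin, went from 3.70 to 1.72, CHI3L2, a chitinase-like protein, from 4.83 to 2.94 and GABRG3, a subunit of the GABA receptor, from 4.21 to 2.42 (adjusted p of the changes 5.6e-05, 2.9e-05 and 2.7e-04). At the extended level the JQ1 differences of GJB6 and CHI3L2 were 1.09 and 1.19. ITGA8 and CYP26A1 were low in both lines under JQ1, where sizes are not exact.

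**Figure D3:**
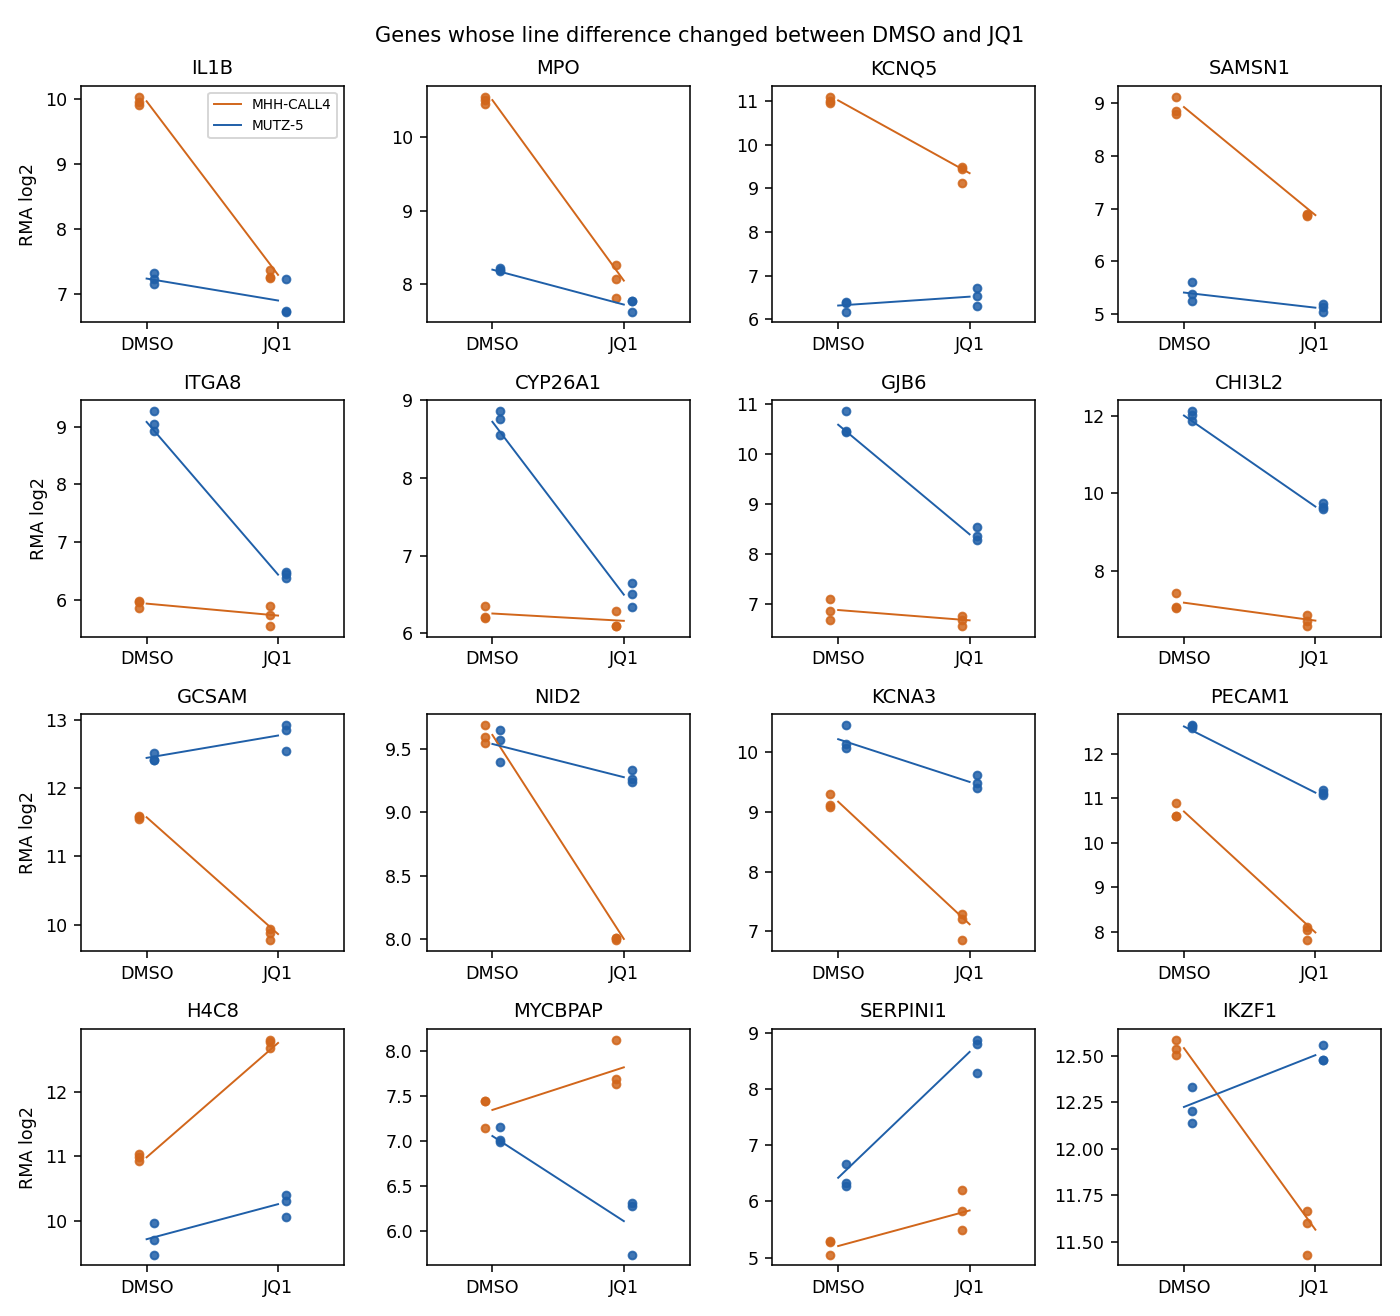
RMA expression (log2) of 16 genes with a called change of the line difference, 1 panel per gene with its own axis. Points are single arrays (MHH-CALL4 in orange and to the left, MUTZ-5 in blue and to the right, 3 per group) and lines join the group means under DMSO and JQ1. In the first 2 rows the lines come together under JQ1, in the rows below they part, and those of NID2 and IKZF1 cross.

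Among the 68 genes whose difference widened, 49 were higher in MUTZ-5 and 19 higher in MHH-CALL4. Of the 49, 36 fell in MHH-CALL4 (median -0.78) while 19 fell and 18 rose in MUTZ-5. Of the 19, 14 fell and 2 rose in MUTZ-5 (median -0.60), while 6 fell and 8 rose in MHH-CALL4. Over all genes 13.0% fell and 9.06% rose in MUTZ-5, and 17.5% fell and 11% rose in MHH-CALL4. Here too the change within a line is part of the interaction that chose the genes, so these counts test nothing further. GCSAM, an adaptor of germinal center B cells that acts on receptor signalling and cell motility, went from 11.58, 11.55 and 11.59 for MHH-CALL4 against 12.42, 12.41 and 12.51 for MUTZ-5 under DMSO to 9.93, 9.88 and 9.77 for MHH-CALL4 against 12.92, 12.86 and 12.54 for MUTZ-5 under JQ1. The lines did not overlap under DMSO and stood further apart under JQ1, with a difference of 0.87 and then 2.91 (7.52-fold, change 2.04, SE 0.132, adjusted p = 6.2e-06). NID2, a basement membrane protein, overlapped between the lines under DMSO, at 9.54, 9.68 and 9.59 for MHH-CALL4 against 9.56, 9.39 and 9.65 for MUTZ-5. Under JQ1 it was 7.99, 8.01 and 8.01 for MHH-CALL4 against 9.33, 9.26 and 9.23 for MUTZ-5, a difference of 1.27 (change 1.34, SE 0.109, adjusted p = 2.5e-05). The potassium channel gene KCNA3 went from 1.05 to 2.39 and PECAM1, an adhesion molecule of the immunoglobulin family, from 1.92 to 3.15 (adjusted p of the changes 0.00123 and 2.4e-04). PCCA, a subunit of propionyl-CoA carboxylase, went from 1.07 to 2.23, and to 1.39 under JQ1 at the extended level (adjusted p of the change 0.0013).

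SERPINI1, which encodes the protease inhibitor neuroserpin and is used as a marker of BET inhibition, rose in both lines. Its DMSO values were 5.29, 5.27 and 5.06 for MHH-CALL4 against 6.33, 6.27 and 6.66 for MUTZ-5, and under JQ1 they were 6.20, 5.84 and 5.49 for MHH-CALL4 against 8.88, 8.80 and 8.29 for MUTZ-5. MUTZ-5 rose by 2.24 and MHH-CALL4 by 0.63, so the difference went from 1.21 to 2.82 (7.06-fold under JQ1; change 1.60, SE 0.256, adjusted p = 0.005). Towards MHH-CALL4 the histone gene H4C8 widened from -1.27 to -2.50. It went from 11.04, 10.93 and 10.99 for MHH-CALL4 against 9.71, 9.48 and 9.96 for MUTZ-5 under DMSO to 12.68, 12.78 and 12.81 for MHH-CALL4 against 10.06, 10.41 and 10.31 for MUTZ-5 under JQ1. All MHH-CALL4 values under JQ1 stood above all others (change -1.23, SE 0.164, adjusted p = 0.00122). For H2BC11 (change -1.0), MYCBPAP (-1.42), GCA (-1.15) and GCHFR (-1.11) the change was called at the core level and lost at the extended level, where it was -0.77, -0.37, -0.60 and -0.20. GCA was also lost without MHH-CALL4 JQ1 replicate 2 (adjusted p = 0.0514). The differences of H2BC11 and GCHFR under JQ1 were called at both levels, at -1.79 and -3.23 for core and -1.15 and -1.07 for extended summaries.

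In 12 genes both differences were called and had opposite signs. IKZF1, the transcription factor Ikaros that governs early B cell development and is often deleted in high-risk precursor B leukemia, was slightly higher in MHH-CALL4 under DMSO, at 12.59, 12.50 and 12.53 for MHH-CALL4 against 12.20, 12.14 and 12.33 for MUTZ-5. Under JQ1 the order was reversed, at 11.66, 11.60 and 11.43 for MHH-CALL4 against 12.48, 12.56 and 12.48 for MUTZ-5. The groups did not overlap under either treatment, and the difference went from -0.32 (adjusted p = 0.00981) to 0.94 (SE 0.079, adjusted p = 8.7e-07), a change of 1.25 (adjusted p = 4.5e-05). MHH-CALL4 fell by 0.98 and MUTZ-5 rose by 0.28. CMAHP, a pseudogene of a sialic acid hydroxylase, went from -0.48 to 0.84 (change 1.31, adjusted p = 9.6e-04), with a fall of 2.53 in MHH-CALL4 and of 1.22 in MUTZ-5. GSDME, the pore-forming gasdermin E, went from -0.89 to 0.29 (change 1.18, adjusted p = 1.7e-04). Its difference under JQ1 (adjusted p = 0.0298) did not hold without MHH-CALL4 JQ1 replicate 2 or 3 or MUTZ-5 JQ1 replicate 1 or 2 (0.27, 0.26, 0.22 and 0.30, adjusted p up to 0.15), in the 6 JQ1 arrays alone (adjusted p = 0.0517) or at the extended level (0.13, adjusted p = 0.366). HDAC9, a class IIa histone deacetylase, moved from -0.38 to 0.41, a change of 0.79 that was 0.52 and not called at the extended level (adjusted p = 0.0674), where the JQ1 difference of 0.24 was not called either (adjusted p = 0.0811).

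MYC and BCL2 showed a line difference under JQ1 that was not called under DMSO. MYC, the growth-promoting transcription factor, had JQ1 values of 10.51, 10.50 and 10.37 for MHH-CALL4 against 11.35, 11.29 and 11.34 for MUTZ-5. The groups stood apart by 0.87 (1.82-fold, SE 0.068, adjusted p = 4.5e-07), against 0.13 under DMSO (adjusted p = 0.198), and the change of 0.73 was called (adjusted p = 0.00112). MYC fell by 2.05 in MHH-CALL4 and fell by 1.32 in MUTZ-5. BCL2, the anti-apoptotic mitochondrial protein, had 8.97, 9.04 and 9.06 for MHH-CALL4 against 9.84, 9.77 and 9.81 for MUTZ-5, a difference of 0.78 (SE 0.072, adjusted p = 2.2e-06) against -0.07 under DMSO (change 0.86, adjusted p = 5.0e-04). Both genes were thus higher in every MUTZ-5 array than in any MHH-CALL4 array under JQ1.

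Gene lists for the tissue and the treatment were written from general knowledge, but with earlier results of these data known. They are described by how many of their measured members were called under JQ1. Beside these counts stands the share of all genes called in the same direction (11.7% higher in MUTZ-5 and 8.25% higher in MHH-CALL4). The lists are thus not independent of the data, and their shares may partly reflect how members were chosen. Medians are to be read against 0.024 over all genes. No list was tested as a set, and some genes stand in several lists. Some counts are also given at an unadjusted p under 0.05 (limma). The share of all genes that passed this looser limit was not computed, so these counts were not shown to exceed it. The bar chart of shares by list gives all of them.

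**Figure D4:**
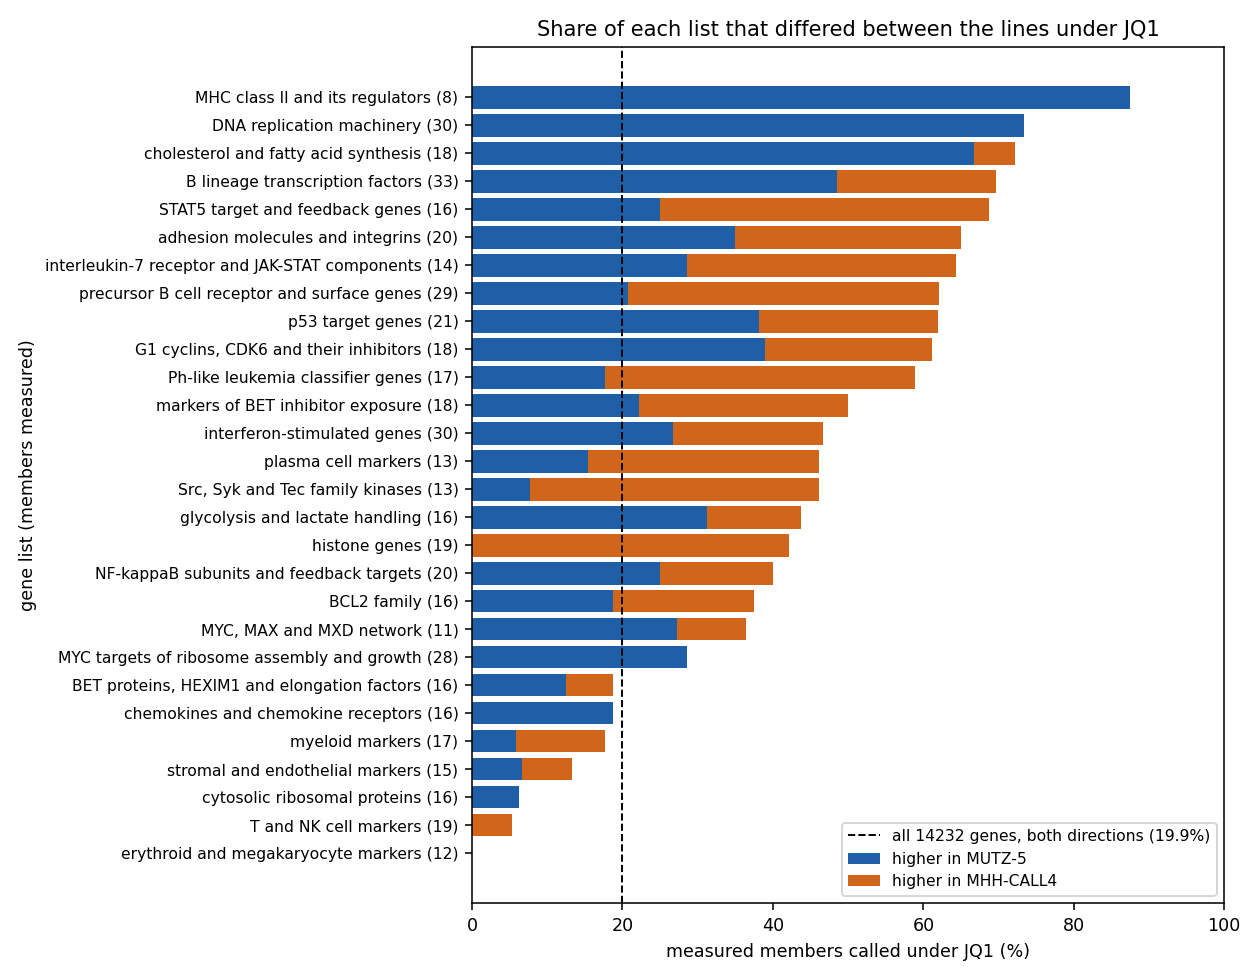
Share of the measured members of each gene list (number in parentheses) that were called under JQ1, split by direction, higher in MUTZ-5 in blue and higher in MHH-CALL4 in orange. The dashed line marks the 19.9% called among all 14232 genes. MHC class II genes (87.5%) and DNA replication genes (73.3%) were called only on the MUTZ-5 side, histone genes (42.1%) only on the MHH-CALL4 side, and erythroid and megakaryocyte markers not at all.

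Of 33 B lineage transcription factors, 16 were higher in MUTZ-5 and 7 higher in MHH-CALL4 under JQ1, with a median of 0.19. Under DMSO the counts were 11 and 9 and the median 0.05 (background 11.9% and 11.5%). The change was called for 5 members, all towards MUTZ-5 (0.949% of all genes). IRF8, which directs early B and myeloid cell fate, gave 10.88, 10.88 and 10.92 for MHH-CALL4 against 12.97, 13.03 and 13.06 for MUTZ-5 under JQ1 (difference 2.13, SE 0.066, adjusted p = 3.7e-11), close to the 2.41 found under DMSO. BACH2, a repressor that holds B cells back from plasma cell fate, gave 10.95, 10.96 and 10.76 for MHH-CALL4 against 12.58, 12.67 and 12.57 for MUTZ-5. Its difference grew from 0.99 to 1.72 (change 0.72, adjusted p = 0.00531). Both genes were higher in every MUTZ-5 array. On the other side, beside ETV6, stood LEF1, an effector of Wnt signalling in early lymphoid cells, at -1.56 (SE 0.131, adjusted p = 8.1e-07), and at -0.53 with extended summaries. PAX5, EBF1, TCF3 and FOXO1, which set up B cell identity, differed little: PAX5 by -0.12, EBF1 by 0.31, TCF3 by 0.08 and FOXO1 by -0.02, of which EBF1 alone was called (adjusted p = 0.00827).

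Precursor B cell receptor and surface genes differed in both directions. Of 29 measured, 12 were higher in MHH-CALL4 and 6 higher in MUTZ-5 (median -0.06), and 17 of these 18 had been called in the same direction under DMSO. VPREB3, a chaperone of immunoglobulin chains in precursor B cells, gave 13.07, 12.88 and 13.02 for MHH-CALL4 against 8.96, 9.28 and 9.62 for MUTZ-5 under JQ1 (difference -3.70, 13.0-fold, SE 0.141, adjusted p = 3.0e-10). CD44, the hyaluronan receptor, gave 9.20, 9.26 and 9.15 for MHH-CALL4 against 7.39, 7.31 and 7.39 for MUTZ-5 (difference -1.84, and -1.21 with extended summaries). CD34, the antigen of hematopoietic progenitors, was the main exception, at 6.89, 6.96 and 7.07 for MHH-CALL4 against 9.76, 9.65 and 9.59 for MUTZ-5. It was 2.69 higher in MUTZ-5 (SE 0.128, adjusted p = 2.5e-09), and this difference had been 3.69 under DMSO (change -0.99, adjusted p = 0.0115). Thus MUTZ-5 kept more CD34 RNA and less VPREB3 and CD44 RNA than MHH-CALL4 with either treatment.

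**Figure D5:**
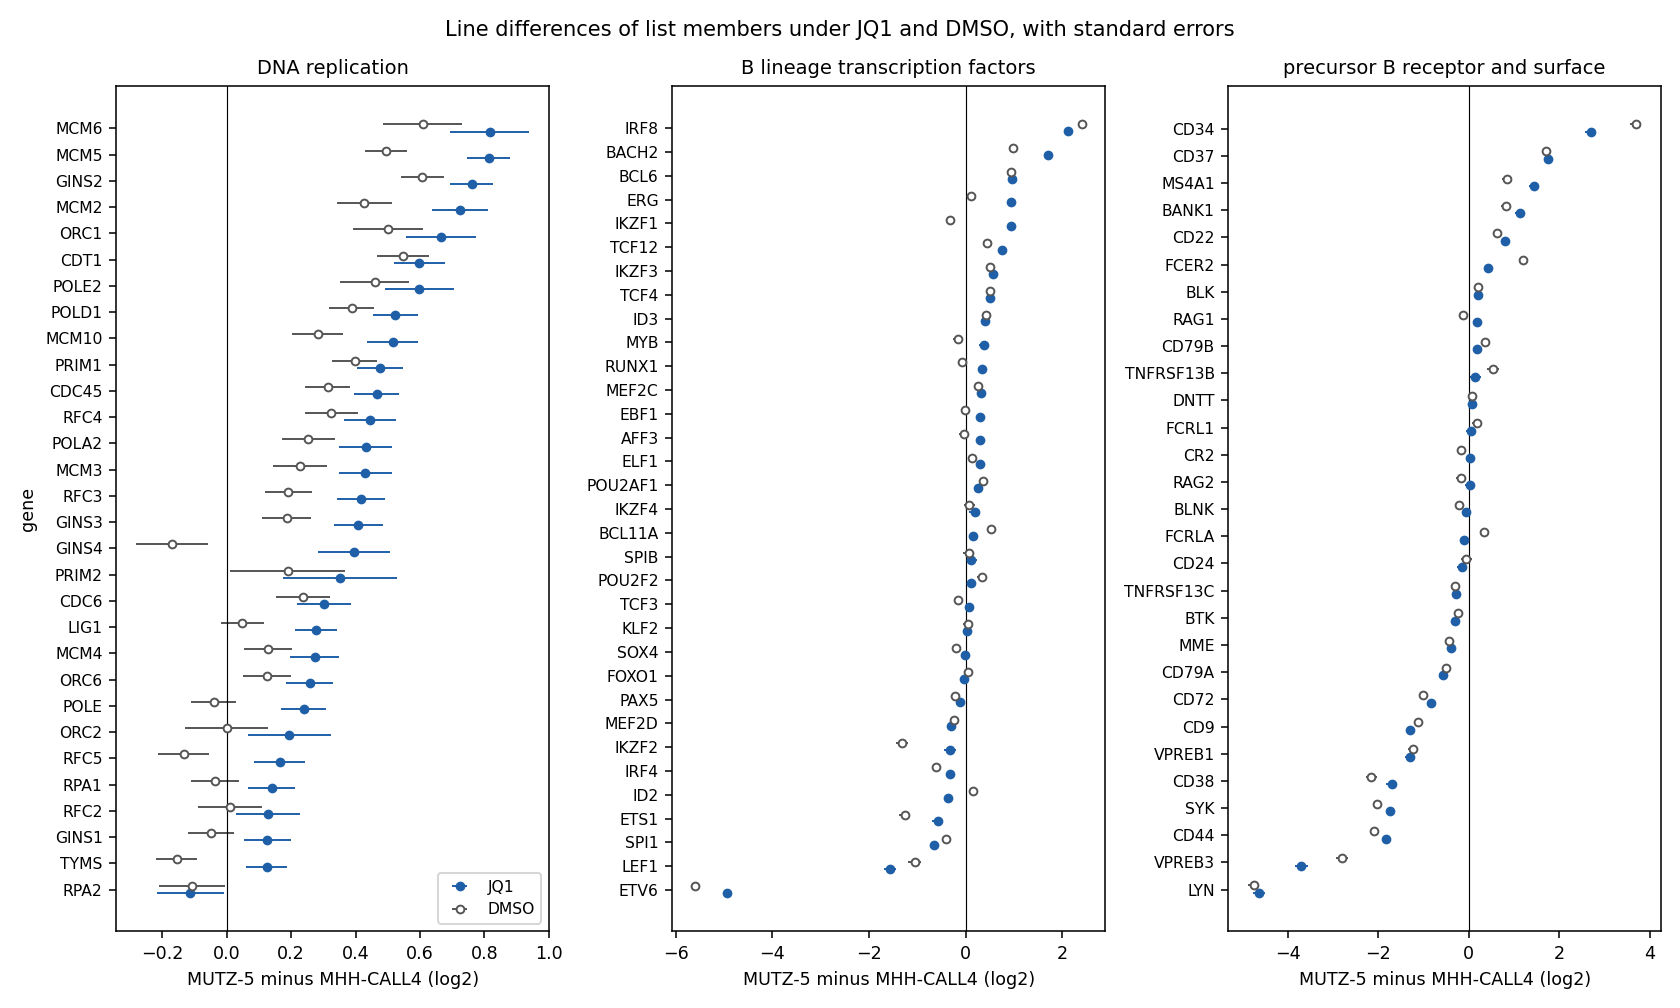
MUTZ-5 minus MHH-CALL4 difference (log2) of every measured member of 3 gene lists under JQ1 (filled) and DMSO (open), with 3 arrays per line. Horizontal bars are standard errors of the fit. Of the 30 DNA replication genes, RPA2 alone lies below 0 under JQ1, while the lists of B cell genes hold members far on both sides.

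MHC class II genes, which present antigen to helper T cells, were higher in MUTZ-5 in 7 of 8 cases under JQ1, with a median of 0.57, and in 6 of 8 under DMSO (median 0.45). HLA-DMB, which helps load peptides, gave 9.77, 9.66 and 9.51 for MHH-CALL4 against 11.61, 11.74 and 11.58 for MUTZ-5 (difference 2.0, SE 0.086, adjusted p = 9.8e-10). HLA-DOA, its modulator, differed by 1.30 and HLA-DPB1, a chain of the presenting molecule itself, by 0.85. CIITA, the coactivator that switches on these genes, gave 10.84, 10.86 and 10.83 for MHH-CALL4 against 11.40, 11.50 and 11.51 for MUTZ-5 under JQ1 and 11.52, 11.59 and 11.57 for MHH-CALL4 against 11.65, 11.51 and 11.66 for MUTZ-5 under DMSO. The lines overlapped under DMSO and stood apart under JQ1, by 0.63 (SE 0.068, adjusted p = 1.1e-05) against 0.05 (change 0.58, adjusted p = 0.00662). CIITA fell in MHH-CALL4, by 0.71 (adjusted p = 4.8e-06), and in MUTZ-5 its change of -0.14 was not called. At an unadjusted p under 0.05 all 8 genes were higher in MUTZ-5.

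Src, Syk and Tec family kinases, which carry the receptor signal, were higher in MHH-CALL4 in 5 of 13 cases and higher in MUTZ-5 in 1. Without MHH-CALL4 JQ1 replicate 1, MUTZ-5 JQ1 replicate 2 or MUTZ-5 JQ1 replicate 3 the 5 became 3. Under DMSO 3 were higher in MHH-CALL4 and 4 higher in MUTZ-5 (background 11.5% and 11.9%), with a median of 0.13 against -0.03 under JQ1. Only 3 members were called in the same direction under both treatments. No change of the difference was called in this list by limma, so a shift between treatments was not shown. Beside LYN stood SYK, the kinase downstream of it, at 9.93, 9.97 and 9.96 for MHH-CALL4 against 8.31, 8.28 and 8.08 for MUTZ-5 (difference -1.73, SE 0.098, adjusted p = 1.4e-08), and CSK, the inhibitor of Src kinases, at -0.55. TEC was the member higher in MUTZ-5 (0.68, SE 0.117, adjusted p = 7.0e-04), with 0.13 under DMSO (adjusted p = 0.487; the change was not called, adjusted p = 0.156). LYN, SYK and CSK had differences of -4.75, -2.02 and -0.49 under DMSO.

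Interleukin-7 receptor and JAK-STAT components had 4 members higher in MUTZ-5 and 5 higher in MHH-CALL4 of 14 under JQ1, against 1 and 2 under DMSO. No change of the difference was called in the list by limma, with 1 positive and 2 negative at an unadjusted p under 0.05, so a shift between treatments was not shown. These counts were as low as 2 on either side when 1 of the 6 JQ1 arrays was left out: 2 higher in MHH-CALL4 without MHH-CALL4 JQ1 replicate 1 (3 without MUTZ-5 JQ1 replicate 2 or 3), and 2 higher in MUTZ-5 without MHH-CALL4 JQ1 replicate 3, MUTZ-5 JQ1 replicate 1 or MUTZ-5 JQ1 replicate 2. PTPN6, the phosphatase SHP-1 that dampens cytokine and antigen receptors, gave 8.80, 8.74 and 8.83 for MHH-CALL4 against 9.73, 9.65 and 9.73 for MUTZ-5 (difference 0.91, SE 0.065, adjusted p = 1.5e-07). JAK3, a kinase of the common cytokine receptors, differed by -0.43 and CSF2RB, a shared cytokine receptor chain, by -0.42. IL7R, the interleukin-7 receptor chain of precursor B cells, gave 9.88, 9.63 and 9.48 for MHH-CALL4 against 9.36, 9.28 and 8.99 for MUTZ-5. Every MHH-CALL4 value lay above every MUTZ-5 value, but the difference of -0.45 (SE 0.115, adjusted p = 0.0113) was lost without MHH-CALL4 JQ1 replicate 1 (-0.35, adjusted p = 0.0544) and without MUTZ-5 JQ1 replicate 3 (-0.34, adjusted p = 0.0536), and was not called in the 6 JQ1 arrays alone (0.0524). JAK2 gave 9.59, 9.80 and 9.44 for MHH-CALL4 against 10.08, 10.03 and 9.85 for MUTZ-5. Its difference of 0.37 (adjusted p = 0.0234) was lost without MHH-CALL4 JQ1 replicate 1 or 3 or MUTZ-5 JQ1 replicate 1 or 2 (0.36, 0.29, 0.33 and 0.35, adjusted p up to 0.0974), and was not called in the 6 JQ1 arrays alone (0.0526).

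STAT5 target and feedback genes lie downstream of these receptors. Of 16 measured, 7 were higher in MHH-CALL4 and 4 higher in MUTZ-5 under JQ1 (median -0.12), and 9 of these 11 were called the same way under DMSO. CCND2, a cyclin of the G1 phase, gave 10.56, 10.57 and 10.56 for MHH-CALL4 against 12.08, 12.07 and 12.13 for MUTZ-5 (difference 1.53, SE 0.067, adjusted p = 1.1e-09), with 1.35 under DMSO, although it fell by 1.40 in MHH-CALL4 and 1.22 in MUTZ-5. BCL6, a repressor in precursor and germinal center B cells, gave 10.75, 10.67 and 10.57 for MHH-CALL4 against 11.63, 11.66 and 11.57 for MUTZ-5 (difference 0.96) and had 0.95 under DMSO. The change was not called for either gene (adjusted p = 0.562 and 0.994). DUSP6, a phosphatase that limits ERK signalling, was higher in MHH-CALL4, at 11.12, 10.95 and 10.99 for MHH-CALL4 against 9.32, 9.12 and 9.50 for MUTZ-5, and its difference grew from -0.87 to -1.71 (change -0.84, adjusted p = 0.0164). TNFRSF1B, TNF receptor type II, differed by -0.94.

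In the network of MYC and its partners, 3 of 11 members were higher in MUTZ-5 and 1 higher in MHH-CALL4. MXD3, a repressing partner of MAX, differed by -0.29 (adjusted p = 0.0107), beside -0.29 under DMSO. MXD4 (0.29) and MXI1 (0.25), which also compete with MYC for MAX, were called but lost the call when single JQ1 arrays were left out. For MXD4 these were MHH-CALL4 JQ1 replicates 2 and 3 and MUTZ-5 JQ1 replicates 2 and 3, with adjusted p up to 0.101, and for MXI1 MHH-CALL4 JQ1 replicates 1 and 2 and MUTZ-5 JQ1 replicate 1, with adjusted p up to 0.0747. MXD4 was also not called with the replicate block in the 6 JQ1 arrays (0.0717). MYC targets of ribosome assembly and growth were higher in MUTZ-5 in 8 of 28 cases under JQ1 (median 0.18, 0.12 with extended summaries) and in 2 of 28 under DMSO (median 0.05). NOP2, a methyltransferase of ribosomal RNA, gave 9.14, 9.13 and 9.17 for MHH-CALL4 against 10.04, 10.03 and 10.07 for MUTZ-5 (difference 0.90, SE 0.078, adjusted p = 1.1e-06). PPAT and GART, enzymes of purine synthesis, differed by 0.72 and 0.33, and SRM, which makes spermidine, by 0.57. The limma test called no change of the line difference in this list, where 5 genes passed an unadjusted p under 0.05, all towards MUTZ-5. The share of all genes passing that limit was not computed, so a shift between treatments was not shown. Without MUTZ-5 JQ1 replicate 1 or replicate 2 the 8 became 5.

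DNA replication genes stood higher in MUTZ-5 as a group. Of 30 measured, 22 were higher in MUTZ-5 under JQ1 and 8 were not called, with a median of 0.41. At an unadjusted p under 0.05 the count on the MUTZ-5 side was the same 22, and no gene passed on the other side. Under DMSO 13 were higher in MUTZ-5 (median 0.21). MCM5, a subunit of the replicative helicase, gave 11, 10.94 and 11 for MHH-CALL4 against 11.77, 11.77 and 11.84 for MUTZ-5 (difference 0.81, SE 0.066, adjusted p = 5.9e-07). MCM6 of the same helicase gave 10.82, 10.60 and 10.34 for MHH-CALL4 against 11.53, 11.44 and 11.24 for MUTZ-5 (difference 0.82, SE 0.123, adjusted p = 2.2e-04), with the widest spread in MHH-CALL4. GINS2, a part of the helicase complex, differed by 0.76 and MCM2 by 0.72. In all 4 genes each MUTZ-5 value lay above each MHH-CALL4 value, but the lines also did not overlap in 2813 of all 2836 called genes. No change of the difference was called in this list by limma, and 8 members passed an unadjusted p under 0.05, each towards a larger value in MUTZ-5. Without the share of all genes passing that limit, a shift between treatments was not shown. Over the alternatives the count ran from 17 to 23 and the median from 0.38 to 0.46.

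Histone genes stood on the other side. Of 19 measured, 8 were higher in MHH-CALL4 under JQ1 and 11 were not called (at an unadjusted p under 0.05, 12 were higher in MHH-CALL4 and 1 in MUTZ-5), with a median of -0.30. Under DMSO 12 were higher in MHH-CALL4 and 1 in MUTZ-5 (median -0.34). H2BC5 gave 10.16, 10.49 and 10.22 for MHH-CALL4 against 8.29, 8.0 and 7.72 for MUTZ-5 (difference -2.28, SE 0.123, adjusted p = 8.9e-09) and H2BC21 gave 12.34, 12.32 and 12.16 for MHH-CALL4 against 11.19, 11.08 and 11.03 for MUTZ-5 (difference -1.18). Both rose under JQ1 in both lines, H2BC5 by 1.71 in MHH-CALL4 and 1.43 in MUTZ-5, and had differences of -2.0 and -1.12 under DMSO. Without MHH-CALL4 JQ1 replicate 1 the count on the MHH-CALL4 side was 5. Because histone genes resemble each other closely, their probe sets may share signal.

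Of 16 BET proteins, HEXIM1 and elongation factors, 2 were higher in MUTZ-5 and 1 higher in MHH-CALL4, a share of 18.8% called against 19.9% of all genes. BRD2 gave 12.18, 12.08 and 11.99 for MHH-CALL4 against 12.16, 12.14 and 12 for MUTZ-5 and overlapped between the lines (difference 0.02, adjusted p = 0.961). BRD3 differed by -0.11 (adjusted p = 0.376). HEXIM1, an inhibitor of P-TEFb that rises under BET inhibitors, gave 11.39, 11.47 and 11.48 for MHH-CALL4 against 11.64, 11.61 and 11.50 for MUTZ-5 and differed by 0.13 (adjusted p = 0.343), after 0.38 under DMSO. It rose by 1.76 in MHH-CALL4 and 1.51 in MUTZ-5, and the change of its line difference was not called. ELL2, an elongation factor that plasma cells use for antibody secretion, was the large exception, at 9.36, 9.06 and 8.43 for MHH-CALL4 against 7.13, 6.79 and 6.44 for MUTZ-5 (difference -2.16, SE 0.215, adjusted p = 4.4e-06; -1.41 with extended summaries). AFF1 of the super elongation complex differed by 0.39. NELFCD, of the pausing factor NELF, stood at 0.24 (adjusted p = 0.0478), a call lost with the replicate block (0.0816) and without any 1 of 9 arrays, the 6 JQ1 arrays, MHH-CALL4 DMSO replicates 1 and 3 and MUTZ-5 DMSO replicate 1 (adjusted p up to 0.173). Among 18 markers of BET inhibitor exposure 4 were higher in MUTZ-5 and 5 higher in MHH-CALL4, and the change was called for 6 of them (1.53% of all genes). Of these MYC, BCL2, SERPINI1, H4C8 and H2BC11 are described above.

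Of 16 BCL2 family members, BCL2 included, 3 were higher in each line and 10 were not called. BMF, a pro-apoptotic member, gave 10.37, 10.28 and 10.33 for MHH-CALL4 against 9.62, 9.48 and 9.56 for MUTZ-5 (difference -0.77, SE 0.069, adjusted p = 1.6e-06). PMAIP1, the p53 target NOXA, differed by -0.44 and BCL2L11, the pro-apoptotic BIM, by 0.44, against -0.33 and 0.60 under DMSO. With the replicate block in the 6 JQ1 arrays 5 members were higher in MHH-CALL4. Among 18 G1 regulators 7 were higher in MUTZ-5 and 4 higher in MHH-CALL4. CCNE2, a cyclin of entry into S phase, gave 11.27, 11.11 and 11.15 for MHH-CALL4 against 10.39, 10.12 and 9.99 for MUTZ-5 (difference -1.01, SE 0.112, adjusted p = 1.3e-05). RB1, the restraint on that entry, differed by -0.81 and its relative RBL1 by 0.59. CDKN1A, the inhibitor p21, differed by -0.38 (adjusted p = 0.00246). CCNE2 and RB1 had differences of -1.14 and -0.79 under DMSO.

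Of 21 p53 target genes 8 were higher in MUTZ-5 and 5 higher in MHH-CALL4. MDM2, the ubiquitin ligase that restrains p53, gave 12.45, 12.33 and 12.31 for MHH-CALL4 against 13.22, 13.17 and 13.07 for MUTZ-5 (difference 0.79, SE 0.074, adjusted p = 2.3e-06), after 0.34 under DMSO (adjusted p of the change 0.0528). TP53INP1, a pro-apoptotic stress protein, differed by 0.70, while the stress genes GADD45A and GADD45B differed by -0.66 and -0.60 (GADD45A -0.35 with extended summaries).

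Cholesterol and fatty acid synthesis genes were higher in MUTZ-5 in 12 of 18 cases and higher in MHH-CALL4 in 1, with a median of 0.38. Under DMSO the counts were 11 and 1 and the median 0.35. HMGCS1, which makes the precursor of mevalonate, gave 9.73, 9.66 and 9.36 for MHH-CALL4 against 10.77, 10.78 and 10.53 for MUTZ-5 (difference 1.11, SE 0.115, adjusted p = 6.6e-06). DHCR7, an enzyme of the last steps to cholesterol, gave 9.53, 9.52 and 9.56 for MHH-CALL4 against 10.65, 10.55 and 10.67 for MUTZ-5 (difference 1.09), SQLE, which makes squalene epoxide, differed by 1.08, and INSIG1, a sterol sensor that holds back the pathway, by 0.84. Each of these genes was higher in all 3 MUTZ-5 arrays than in any MHH-CALL4 array. The lines also did not overlap in 2813 of all 2836 called genes. Glycolysis genes had 5 of 16 higher in MUTZ-5, led by the isomerase GPI (0.72) and the neuronal enolase ENO2 (0.44), and 2 higher in MHH-CALL4, the glucose transporter SLC2A1 (-0.55) and the lactate dehydrogenase subunit LDHB (-0.49). Of 16 measured ribosomal protein genes RPS14 alone was called (0.87, adjusted p = 3.7e-05; 0.37 with extended summaries).

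Adhesion molecules and integrins differed widely in both directions. Of 20 measured, 7 were higher in MUTZ-5 and 6 higher in MHH-CALL4, and 7 differed at least 2-fold. ITGA6, a laminin receptor subunit, gave 8.93, 8.78 and 8.52 for MHH-CALL4 against 11.68, 11.62 and 11.34 for MUTZ-5 (difference 2.80, SE 0.111, adjusted p = 4.2e-10). ITGB3, a beta chain of the vitronectin receptor, gave 6.76, 6.99 and 6.98 for MHH-CALL4 against 8.82, 8.87 and 8.59 for MUTZ-5, and its difference grew from 1.06 to 1.85 (change 0.80, adjusted p = 0.00531). On the other side ITGAL, the alpha chain of LFA-1, gave 10.31, 10.27 and 10.40 for MHH-CALL4 against 8.18, 8.05 and 8.27 for MUTZ-5 (difference -2.16, SE 0.088, adjusted p = 5.7e-10), although it fell by 1.26 in MHH-CALL4 and by 1.35 in MUTZ-5. ICAM1, a ligand of LFA-1, differed by -1.17. Thus MUTZ-5 had more ITGA6, ITGB3 and PECAM1 RNA and MHH-CALL4 more ITGAL, ICAM1 and CD44 RNA. Of 16 chemokines and chemokine receptors 3 were higher in MUTZ-5. The 6 JQ1 arrays alone also called 1 higher in MHH-CALL4, and 2 with the replicate block. The 3 were CCR7, which guides cells to lymph nodes (0.85), CXCR4, which holds precursor cells in the marrow (0.55), and CCL17 (0.34), whose call was lost with the replicate block in the 6 JQ1 arrays (adjusted p = 0.0697) and without MUTZ-5 JQ1 replicate 1 (0.27, adjusted p = 0.0589).

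Of 17 genes from classifiers of Philadelphia chromosome-like leukemia 7 were higher in MHH-CALL4 and 3 higher in MUTZ-5. LDB3, a cytoskeletal protein, gave 9.16, 9.30 and 9.39 for MHH-CALL4 against 8.15, 7.95 and 8.16 for MUTZ-5 (difference -1.19, SE 0.092, adjusted p = 3.4e-07). Under DMSO it had differed by -2.17 (change 0.98, adjusted p = 0.00119). SPATS2L, an RNA-binding protein, differed by -0.99 and the mucin MUC4 by -0.95. Interferon-stimulated genes had 8 of 30 members higher in MUTZ-5 and 6 higher in MHH-CALL4. OAS1, a sensor of double-stranded RNA, gave 8.04, 8.24 and 8.34 for MHH-CALL4 against 9.76, 9.56 and 9.64 for MUTZ-5 (difference 1.45, SE 0.119, adjusted p = 6.7e-07), and BST2, which tethers budding viruses, differed by 0.88. IFIT3, an antiviral partner of IFIT1, gave 9.12, 9.10 and 9.15 for MHH-CALL4 against 8.12, 7.98 and 8.07 for MUTZ-5 (difference -1.07), and PARP9 differed by -0.76. Members of this list thus lay on opposite sides. Of 20 NF-kappaB subunits and feedback targets 5 were higher in MUTZ-5 and 3 higher in MHH-CALL4. CD40, a receptor of T cell help, differed by 1.11, while the cytokine TNF and the early response gene IER3 differed by -0.93 and -0.84.

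Of 19 T and NK cell markers 1 was called, the granule protein NKG7, at -0.49 (adjusted p = 0.00134). None of 12 erythroid and megakaryocyte markers was called by limma, nor passed an unadjusted p under 0.05, with HBB at 0.12 and ITGA2B at 0.11. Of 15 stromal and endothelial markers 2 were called. VIM, the intermediate filament vimentin, which many blood cells also make, gave 12.61, 12.59 and 12.58 for MHH-CALL4 against 10.02, 9.92 and 9.82 for MUTZ-5 (difference -2.67, SE 0.089, adjusted p = 8.1e-11), and SPARC, a matrix protein, differed by 0.93 (0.57 with extended summaries). Of 13 plasma cell markers 4 were higher in MHH-CALL4 and 2 higher in MUTZ-5. The count of 2 was 1 with cyclic loess, with extended summaries, in the 6 JQ1 arrays alone and without MUTZ-5 JQ1 replicate 2, and 0 without MHH-CALL4 JQ1 replicate 2 or 3 or MUTZ-5 JQ1 replicate 1. CD38, also a marker of precursor B cells, differed by -1.70, and XBP1, the transcription factor of the secretory program, gave 13.09, 12.94 and 13.04 for MHH-CALL4 against 12.24, 12.18 and 12.30 for MUTZ-5 (difference -0.78, SE 0.074, adjusted p = 2.7e-06). Both had been called in the same direction under DMSO, at -2.15 and -0.74. Among the precursor B cell markers 3 of 11 were higher in each line.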

How the data were processed

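The authors deposited RMA expression values on a log2 scale made with Affymetrix Expression Console, per the submitters' processing notes; its version and the genome build are not given in the sources used here. RMA subtracts background, equalises array distributions and summarises probes, so a shift shared by all genes would be lost. The core level held 22011 transcript clusters. The 14432 with 1 gene symbol in the platform annotation were used (2408 had several and 5171 were not listed), 14404 matched RefSeq, and for the 197 genes with several clusters the one with the highest mean was kept, which left 14232 genes. Group means of the 12 core arrays were fitted with limma 3.58.1 (R 4.3.3) in 1 model that shares the spread over 4 groups. P-values were adjusted by Benjamini-Hochberg over all genes. On simulated data for 14232 genes, log2 differences of 0.5 and 1 were recovered in 84.5% and 99.8% of cases under JQ1 and in 47.3% and 98% for the change. The simulated noise was normal, independent between arrays and, for each gene, of equal spread in all arrays. The real arrays differ in spread and deviate together in part, so these rates need not hold for them and may be too high. The number of arrays limits the precision.

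Named were the 10 largest called JQ1 differences each way (groups not overlapping, higher mean at or above the median of all genes), the 6 largest widened and 6 largest narrowed each way, 6 of opposite sign, up to 4 called members of each list (2 where none was called) and a few genes tied to BET inhibition. Members and lists were chosen with earlier results of these data known. The alternatives were other normalizations (median centring, cyclic loess), extended summaries, moderated variances with a trend, a level filter, cluster means, 1 treatment alone, the replicate number as a block and leaving out each array. Same-numbered JQ1 arrays of both lines deviated together (correlations of 0.20 to 0.47 over genes, against -0.34 to 0.22 for other pairs). The ranges overlap, so the number may pair these arrays but need not. The main fit used no block and ignores such a pairing, and fits with the block are given as alternatives. Over all groups same-numbered arrays gave -0.62 to 0.47, so the number was not taken to pair them. Some genes are not reported here.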

Additional observations from a re-analysis of the deposited data

Results flagged for a closer look

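The line difference itself differed between DMSO and JQ1, by the interaction test at an adjusted p under 0.05 (limma), in 43 of the named genes. Values are the difference under JQ1 minus that under DMSO, in log2 units, and a positive value means a move towards MUTZ-5.

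Genes that had been higher in MHH-CALL4 and moved towards MUTZ-5 were IL1B by 2.34, MPO by 1.99, KCNQ5 by 1.87, LGR5 by 1.77, SAMSN1 by 1.76, PSTPIP2 by 1.65, LDB3 by 0.98 and ETV6 by 0.65. Genes already higher in MUTZ-5 that moved further that way were GCSAM by 2.04, SERPINI1 by 1.60, KCNA3 by 1.34, PECAM1 by 1.23, PCCA by 1.16, ITGB3 by 0.80, BACH2 by 0.72 and HLA-DMB by 0.61. Genes that had been level or of the opposite sign were NID2 at 1.34, CMAHP at 1.31, IKZF1 at 1.25, GSDME at 1.18, BCL2 at 0.86, HDAC9 at 0.79, MYC at 0.73, FITM2 at 0.73 and CIITA at 0.58.

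Genes that had been higher in MUTZ-5 and moved towards MHH-CALL4 were ITGA8 at -2.43, CYP26A1 at -2.13, ADAD1 at -2.12, GJB6 at -1.98, CHI3L2 at -1.89, GABRG3 at -1.79, RGS1 at -1.72, ALKAL2 at -1.58, CD34 at -0.99, ITGA6 at -0.76 and PRDM1 at -0.66. Genes that moved further towards MHH-CALL4 were MYCBPAP at -1.42, H4C8 at -1.23, GCA at -1.15, GCHFR at -1.11, H2BC11 at -1.0, VPREB3 at -0.90 and DUSP6 at -0.84.

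Some of these calls rest on single arrays. For PRDM1 the call was lost without any 1 of 10 arrays, all but MHH-CALL4 DMSO replicate 1 and MHH-CALL4 JQ1 replicate 3 (adjusted p up to 0.121), and with the replicate block (0.0664). For VPREB3 it was also lost without any 1 of 10, all but MUTZ-5 DMSO replicate 2 and MUTZ-5 JQ1 replicate 3 (up to 0.107). RGS1 lost it without any 1 of 8 arrays, all but MHH-CALL4 JQ1 replicate 3 and the 3 MUTZ-5 DMSO arrays (up to 0.111). ITGA6 lost it without any 1 of 8, all but MHH-CALL4 DMSO replicate 1, MHH-CALL4 JQ1 replicate 3, MUTZ-5 DMSO replicate 3 and MUTZ-5 JQ1 replicate 1 (up to 0.081). HLA-DMB lost it without MHH-CALL4 DMSO replicate 1 or 2, MHH-CALL4 JQ1 replicate 2, MUTZ-5 DMSO replicate 1 or 2 or MUTZ-5 JQ1 replicate 2 (up to 0.0815), and with extended summaries (0.68, adjusted p = 0.0716). With extended summaries FITM2 changed by 0.31 (adjusted p = 0.209), and its JQ1 difference of 0.15 was not called (0.192). With cyclic loess the changes of RGS1 (-1.70, adjusted p = 0.0635), PRDM1 (-0.60, 0.172) and GCA (-1.11, 0.0654) were not called, nor were the JQ1 differences of RGS1 (0.0545) and PRDM1 (0.107). ADAD1 lost it without MHH-CALL4 DMSO replicate 1, MHH-CALL4 JQ1 replicate 2, MUTZ-5 DMSO replicate 1 or 2 or MUTZ-5 JQ1 replicate 1 or 3 (up to 0.0573).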

How the results depend on the processing

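No result changed direction with a call on both sides. Among genes whose mean reached the median of all genes, fewer by construction, 281 differed at least 2-fold under JQ1 and 279 of them were called the same way under DMSO. In that set 1061 genes were higher in MUTZ-5 and 1392 higher in MHH-CALL4 under DMSO. There 285 differed at least 2-fold, and 282 of these were called the same way under JQ1. The change was called in 136 genes of that set, 37 with a negative sign. Leaving out each array in turn gave 157 to 360 genes with a called change, 102 to 262 positive (most without MUTZ-5 DMSO replicate 3) and 55 to 98 negative (fewest without MUTZ-5 JQ1 replicate 2); the cause was not tested. The count under JQ1 then ran from 2278 to 3183, that under DMSO from 2640 to 3699, and the genes that remained from 531 to 550. Median centring split the JQ1 calls 1540 to 1435 and cyclic loess 1724 to 1566 (MUTZ-5 first). The DMSO calls split 1462 to 2039 and 1789 to 2009, against 1695 to 1635 in the main fit. Which line held more of the DMSO calls thus depended on the normalization.

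With the replicate block 2565 genes were called under JQ1 (1499 higher in MUTZ-5 and 1066 higher in MHH-CALL4) and 176 for the change. The block in the 6 JQ1 arrays alone, added after seeing the data, called 3493. Calls of named genes that a block changed are given with those genes. Of the 138 named JQ1 differences 123 lost no call and 136 kept their sign in all alternatives run. Of the 43 named changes 29 lost no call, and all 43 kept their sign. Extended summaries use other probes and moved the sizes of some large differences, and no detection call bounds the lowest levels.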

Other observations

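Genes next to the top genes were looked at after their values were seen. The 20 genes with the largest differences under JQ1 had 151 distinct measured neighbours that were not top genes themselves, up to 4 on each side in RefSeq order. Of these, 29 were called (19.2%, against 19.9% of all genes), 18 in the same direction as the top gene, 6 of them at least 2-fold, and 11 in the opposite direction (11.7% of all genes were higher in MUTZ-5 and 8.25% in MHH-CALL4). The top genes ETV6 and LRP6 lie 2 measured genes apart, and BCL2L14 between them differed by -0.06 (adjusted p = 0.811, limma). FUNDC1, a mitophagy receptor, lies 2 measured genes from KDM6A and differed by -1.78 under JQ1 and -2.33 under DMSO, while DUSP21 between them differed by -0.01. BCL2L14 and DUSP21 were low in both lines under JQ1 (5.75 and 5.73 in MHH-CALL4, 5.69 and 5.72 in MUTZ-5). These levels lie near 5.72, the 10th percentile of gene means, so neither gene can show a loss in either line. DAB2, an endocytic adaptor, lies 2 measured genes from FYB1 and differed by 1.75 under JQ1 and 1.70 under DMSO. ZNF667, next to ZNF667-AS1, differed by 2.36 and 2.54, and EEF1DP3, next to FRY, by 1.78 and 1.60. PLAG1, 2 measured genes from LYN, differed in the direction opposite to LYN, by 1.30 and 1.11.

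One run of 8 measured neighbours called in a single direction was found under JQ1. It reached from TTC9C to SLC3A2 and included the RNA polymerase subunit gene POLR2G and WDR74, and all 8 were higher in MHH-CALL4, with a median of -0.57 (-1.14 to -0.31). Under DMSO the median was -0.62 and all 8 were called in the same direction.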
